A study of Drosophila melanogaster with 2 samples.

Results

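The sites described here are ChIP-seq peaks of the tagged protein CG9705 in Drosophila melanogaster larvae whose summit lay within 500 bp of a transcript start of a noncoding RNA (ncRNA) gene and of no protein-coding transcript start. They numbered 716 of the 30000 peaks called on both replicates pooled. Of the 30000, 1098 had an ncRNA start that close to the summit, and 382 of these were set aside because a coding start was that close too. The same rule found 673 such peaks in the list of replicate 1 and 656 in that of replicate 2. Biotypes and starts are those of Ensembl release 115, so a site is called by its position in an annotation. No RNA was measured, and whether these ncRNAs were transcribed in the larvae is not known from these data.

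The material was whole wandering L3 larvae (the third instar), males and females pooled, of 1 transgenic line that stably carries CG9705 with GFP fused to its C terminus. CG9705 is a protein with a cold-shock domain, a fold that binds single-stranded nucleic acids. Per the labels, the 2 biological replicates were separate biosamples of that line, there was no second genotype or treatment, and neither the promoter that drives the transgene nor the age of the larvae is given. The labels conflict on what the libraries are: a free-text note on both calls them input controls, whereas the antibody field names CG9705, the assay is given as transcription factor ChIP-seq and the file notes name 1 further file as the control. They are treated as ChIP libraries, and every result rests on that reading.

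Long ncRNAs of the fly are mostly made by RNA polymerase II from promoters like those of coding genes, and several of them are the primary transcripts from which microRNAs (miRNAs) are cut. A hairpin is excised from such a host transcript and a mature miRNA from the hairpin. The mature miRNA finds its targets mainly through its seed, the stretch after its first base. The annotation files hairpins and mature miRNAs as ncRNA genes of their own, with 260 hairpin and 481 mature entries among 3261 ncRNA genes. The first base of such an entry is where the RNA is cut, and not where transcription starts.

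The summits of the highest-scoring sites are shown first. The ranks given below are by score and do not use the sequence. Each line holds the 100 bp on either side of the summit in dm6 (sequence from the RefSeq copy of Release 6), read 5′ to 3′ on the strand of the ncRNA. Capitals mark the matches to any of the 7 motifs searched (spelled out further on). The first 5 lines are the 5 highest-scoring sites, and the last is the heat-inducible Hsromega.
CR31044 (chr3R:29214348-29214548, plus strand): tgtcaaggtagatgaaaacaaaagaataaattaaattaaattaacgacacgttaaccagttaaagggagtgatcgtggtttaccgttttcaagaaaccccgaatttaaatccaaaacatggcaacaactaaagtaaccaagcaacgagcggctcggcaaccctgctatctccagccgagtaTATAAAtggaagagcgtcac
CR44676 (chr3L:19560731-19560931, minus strand): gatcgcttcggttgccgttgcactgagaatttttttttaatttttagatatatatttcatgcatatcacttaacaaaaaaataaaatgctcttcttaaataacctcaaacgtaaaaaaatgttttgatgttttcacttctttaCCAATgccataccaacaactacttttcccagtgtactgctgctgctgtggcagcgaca
CR43626 (chr3L:3248810-3249010, plus strand): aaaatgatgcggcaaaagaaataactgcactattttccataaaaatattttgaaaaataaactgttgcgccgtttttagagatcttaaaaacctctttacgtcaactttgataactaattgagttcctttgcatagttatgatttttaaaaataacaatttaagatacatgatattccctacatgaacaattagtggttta
CR46102 (chr3R:25738086-25738286, plus strand): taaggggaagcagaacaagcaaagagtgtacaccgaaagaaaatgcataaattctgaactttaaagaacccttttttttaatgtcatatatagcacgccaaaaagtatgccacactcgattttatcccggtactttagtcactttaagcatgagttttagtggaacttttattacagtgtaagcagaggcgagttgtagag
CR46036 (chr3R:17700450-17700650, plus strand): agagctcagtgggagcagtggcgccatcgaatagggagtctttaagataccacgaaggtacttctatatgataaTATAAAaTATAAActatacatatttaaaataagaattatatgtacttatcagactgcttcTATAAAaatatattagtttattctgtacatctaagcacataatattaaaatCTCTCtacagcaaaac
Hsromega (chr3R:21296259-21296459, plus strand): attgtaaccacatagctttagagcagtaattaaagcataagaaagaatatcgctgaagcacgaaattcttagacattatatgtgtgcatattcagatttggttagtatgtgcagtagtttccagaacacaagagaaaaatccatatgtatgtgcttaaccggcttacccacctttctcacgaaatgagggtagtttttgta
The windows of CR43626, CR46102 and Hsromega held no match. CR31044 held 1 TATA box, CR44676 held 1 CCAAT box, and CR46036 held 3 TATA boxes and 1 GAGA element. GC content ran from 27.4% in CR43626 to 39.8% in CR31044.

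CR31044 is the annotated host of mir-279 and mir-996, and other sites described below lay at hosts of mir-282, mir-275 and the let-7 cluster. These hosts are a selection that does not follow rank. The hosts of mir-8 (rank 710), mir-4951 (914) and mir-281-1 with mir-281-2 (1669) ranked above that of let-7 (2750) and are not shown. Nor is the host of mir-14 (3369). The mature miRNAs cut from the selected hosts are given below from the arm of the hairpin named. Coordinates are Ensembl's in the same assembly, and bases 2 to 8, the seed, are in capitals.
miR-279 (3′ arm, chr3R:29215651-29215672, plus strand): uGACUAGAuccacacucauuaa
miR-996 (3′ arm, chr3R:29217244-29217265, plus strand): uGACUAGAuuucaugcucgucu
miR-282 (5′ arm, chr3L:3251038-3251061, plus strand): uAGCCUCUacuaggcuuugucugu
miR-275 (3′ arm, chr2L:7425853-7425875, plus strand): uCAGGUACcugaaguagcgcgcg
let-7 (5′ arm, chr2L:18472044-18472064, plus strand): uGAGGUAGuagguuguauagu
miR-100 (5′ arm, chr2L:18471445-18471466, plus strand): aACCCGUAaauccgaacuugug
miR-125 (5′ arm, chr2L:18472343-18472364, plus strand): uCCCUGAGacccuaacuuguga
miR-279 and miR-996 carry the same seed, GACUAGA, and the other 5 each have a seed of their own.

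The strongest site of all ranked 15 in the pooled list. It lay at CR31044 (chr3R:29214234-29214621, intergenic) with its summit at -114 bp from the start, negative values being upstream, and a score of 1814. The score is the authors' own, its scale is not stated, and it serves here for ranking within a list. This peak ranked 14 in replicate 1 and 18 in replicate 2. miR-279 is known for restricting the formation of carbon dioxide sensing neurons in the fly.

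Next came CR44676 (chr3L:19560652-19561037, intergenic), an uncharacterised lncRNA, at rank 26 with a score of 1456 and its summit 359 bp inside the transcript. Its ranks in the replicates were 21 and 27. CR43626 (chr3L:3248661-3249130), the host of mir-282, ranked 64 with a score of 926, and ranked 94 in replicate 1 and 46 in replicate 2. Its summit was at -430 bp, in an exon of the coding gene CG43389 on the same strand. These 3 were the sites among the 100 best pooled peaks (3.0%, 95% exact binomial interval 0.623 to 8.52%). The 1000 best held 25 (2.5%, interval 1.62 to 3.67%). Both intervals hold the 2.30% that the sites made up of ranks 15001 to 30000.

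CR46102 (chr3R:25738033-25738348) ranked 101, and its summit was in an intron of LpR2, a lipophorin receptor gene on the opposite strand. CR46036 (chr3R:17700381-17700755) ranked 112, in an intron of osa, which encodes a SWI/SNF subunit, again on the opposite strand. CR31840 (chr2L:14023945-14024237) ranked 205 with its summit 8 bp inside the transcript. In the 2 replicates these peaks ranked 96 and 105, 95 and 130, and 184 and 222. All 3 lay near the top of both lists.

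The other sites among the 20 best were spread over many kinds of neighbour. CR45997 (rank 246) lay in mbl, which encodes the splicing factor muscleblind, and CR43717 (538) in ex, a Hippo pathway gene, both on the strand of the coding gene. CR44867 (534) and CR44868 (679) lay in beat-Ib, CR34052 (606) in Raf, a kinase gene, and the antisense RNAs CR45908 (591) and CR46145 (678) in CG1943 and FER, all on the opposite strand. CR45668 (285) was at -653 bp from the start of Act5C, a cytoplasmic actin gene, and CR42657 (319) was at -655 bp from that of nej, which encodes the acetyltransferase CBP. Others were farther from a coding start. For CR44339 (753) the nearest was that of Psc, a Polycomb group gene, with the summit at -4215 bp from it. CR45148 (807) was at 4772 bp from that of ND-B14.7, and CR44742 (821) at -1177 bp from that of vri, a clock gene. With Uhg4 (252) and CR43650 (710), described below, these complete the 20.

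**Figure D1:**
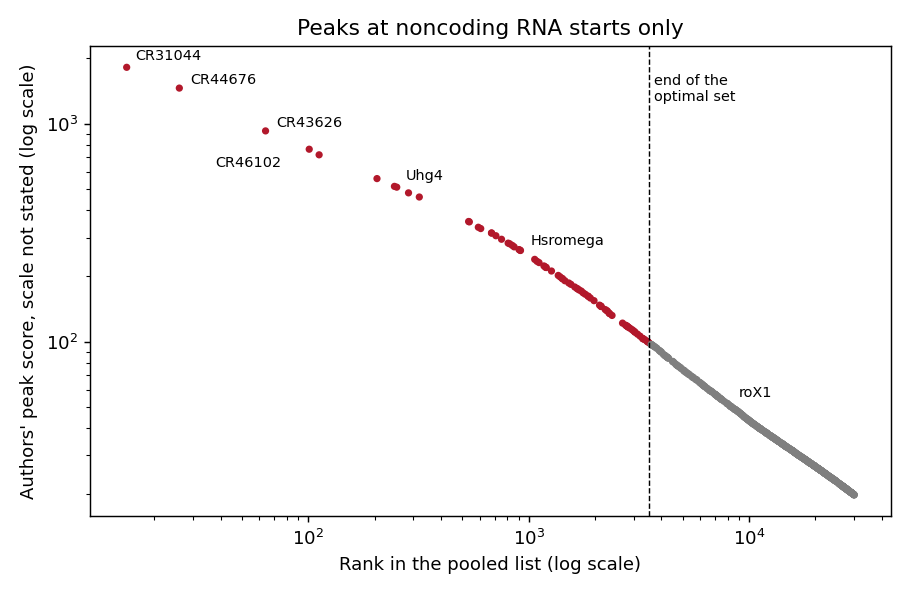
Authors' peak score against rank in the pooled list for all 716 sites, both axes logarithmic; red points are the 82 in the optimal set and the dashed line is its end at rank 3533. Scores fall from 1814 at CR31044, through 262 at Hsromega, to 50.8 at roX1 and 19.8 at the lowest site.

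The authors' optimal set, the 3533 highest-scoring pooled peaks, held 82 of the 716 sites (11.5%, 95% exact binomial interval 9.21 to 14.0%). All such intervals cover the counting of peaks only. Of all pooled peaks 11.8% were in that set, so the share of the sites was near the background. It was 21.7% for peaks at coding starts (1962 of 9024) and 7.35% for peaks away from both kinds of start (1489 of 20260). The median rank of the sites was 14507, against 15000.5 for the whole list.

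Along the list the sites kept nearly the same share. They were 2.32% of ranks 1 to 3533 (interval 1.85 to 2.87%), 2.45% of ranks 3534 to 7500, 2.56% of ranks 7501 to 15000 and 2.30% of ranks 15001 to 30000. The intervals of these 4 shares overlap. Over the same ranges the share of peaks at coding starts went from 55.5% to 47.5%, 31.1% and 18.98%. No test of the difference was run.

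**Figure D2:**
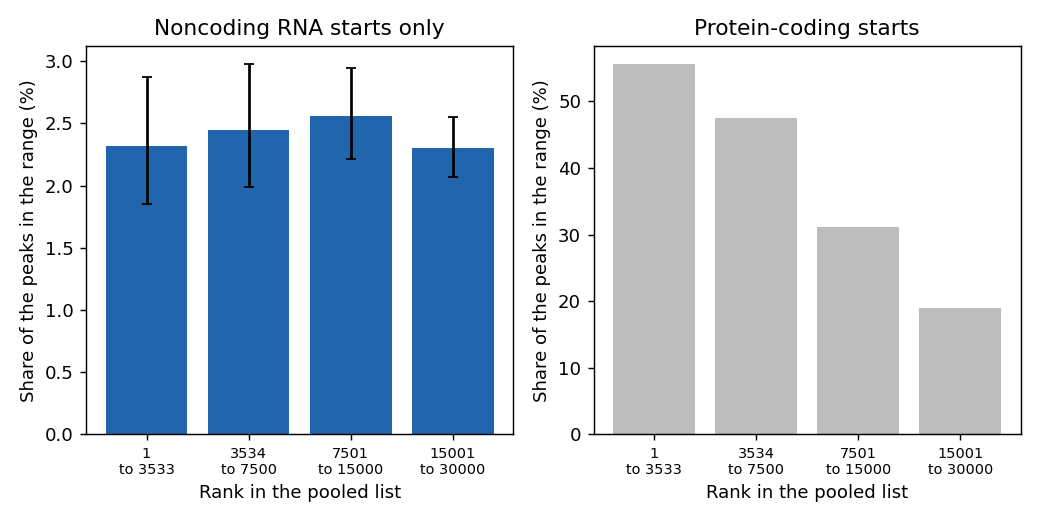
Share of the pooled peaks in 4 rank ranges that lay at ncRNA starts only (left, bars with 95% exact binomial intervals) and at protein-coding starts (right; the axes differ in scale). The left bars lie between 2.30% and 2.56%, and the right ones go from 55.5% to 18.98%.

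Scores ran on without a step across the end of the optimal set. The last 5 inside it were CR43651, CR45730, CR44510, CR44274 and CR44971, at ranks 3369 to 3526 with scores of 102 to 98.5. The first 5 outside were CR45531, CR44723, CR44677, CR45659 and CR43883, at ranks 3597 to 3659 with scores of 97.0 to 95.8. CR44723 was the one of these 10 with no summit of replicate 1 within 100 bp. The limit of 500 bp was equally soft: 76 sites had their ncRNA start 451 to 500 bp away, and 62 other peaks missed it by at most 50 bp. Some sites were close neighbours of a stronger peak. The CR45531 site outside the set lay within 500 bp of an optimal site of the same gene, at rank 1114. In all, 116 of the 716 sites (16.2%) had a stronger pooled summit within 500 bp, against 15.0% of all pooled peaks.

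In the replicates, called separately, the sites recurred about as often as pooled peaks in general. A summit of replicate 1 lay within 100 bp of 414 sites (57.8%, background 58.8%), and one of replicate 2 within 100 bp of 475 (66.3%, background 66.5%). Both did for 266 sites (37.2%, background 37.6%), and neither did for 93 sites (13.0%). In the optimal set 80 of the 82 sites had both, or 97.6%, where 95.7% of all optimal peaks did. The optimal set was drawn from these replicates, so that share describes how it was made. The exceptions were CR45424, whose nearest summit in replicate 1 was 101 bp away, and CR45352, 177 bp away in replicate 2.

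The ranks of the optimal sites ran from 14 to 9253 in replicate 1 and from 18 to 5433 in replicate 2. Of the 82, 72 lay among the 3533 best of replicate 1, 73 among those of replicate 2 and 64 among both. The same counts over all optimal peaks are not given here, so whether these are usual for the set is not known. Wide gaps were found at let7C, at rank 6458 in replicate 1 and 1973 in replicate 2, and at a site of the antisense RNA CR43481, at 9253 and 1900. Depth per library is unknown, as the lists give no read counts. In whole larvae a site held in few cells and one held weakly in many cannot be told apart.

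**Figure D3:**
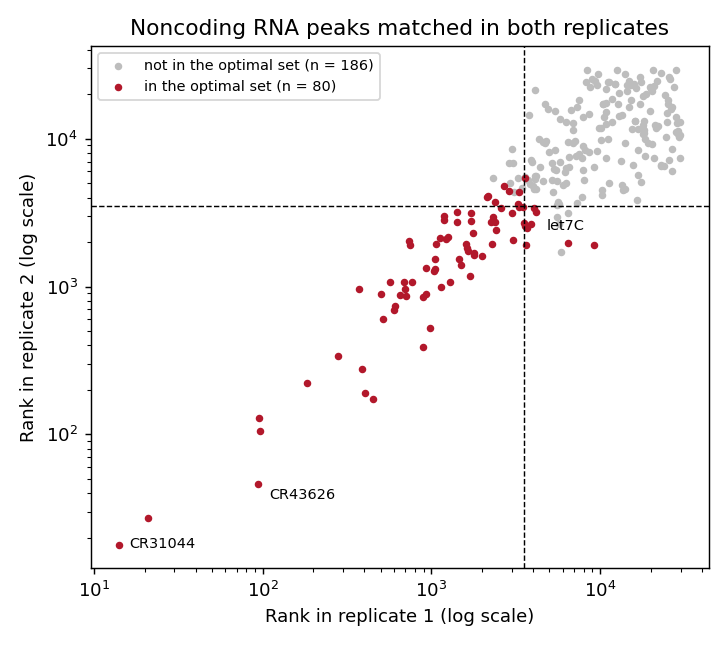
Rank in replicate 2 (vertical axis) against rank in replicate 1 (horizontal axis) for the 266 sites with a summit of both within 100 bp, both axes logarithmic; red points are the 80 in the optimal set and dashed lines mark rank 3533. CR31044 and CR43626 lie near the origin, and let7C lies right of the vertical line and under the horizontal one.

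Host transcripts of miRNAs held 3 of the 20 best sites, at CR31044, CR43626 and CR43650. Of 2520 long ncRNA genes (all but hairpin and mature entries), 37 held a hairpin on their own strand. Of these 37, 19 had a site at a start (51.4%), against 555 of all 2520 (22.0%), and 8 had one in the optimal set (21.6%, interval 9.83 to 38.2%). Of the 2483 without a hairpin, 70 had an optimal site (2.82%, interval 2.20 to 3.55%), and over all 2520 the share was 3.1%. The hosts were longer, with a median length of 6436 bp against 701 bp. The median gene of either kind had 1 start, with at most 8 in a host and 5 in a gene without a hairpin. The 8 hosts with an optimal site had a median of 1.5 starts, against 1 for the other hosts. The part of gene length and of the number of starts in the difference between the shares was not tested.

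The 8 hosts with an optimal site spanned ranks 15 to 3369. After CR31044 and CR43626 came CR43650, the host of mir-8, at rank 710 (987 and 528 in the replicates). The fly miR-8, of the miR-200 family, is known for promoting growth in the fat body. CR43857, the host of mir-275, ranked 843 (711 and 865), with the summit at -344 bp. A further optimal site at rank 1806 lay at -457 bp from the mir-275 hairpin itself. Hsromega, a nuclear RNA induced by heat that organises omega speckles and here also holds mir-4951, ranked 914 (692 and 1070), with its summit 232 bp inside. The antisense RNA CR46194, which holds mir-281-1 and mir-281-2, ranked 1669 (1632 and 1823). let7C, the primary transcript of mir-100, let-7 and mir-125 that rises at metamorphosis, ranked 2750. Its summit was 499 bp inside the transcript, at the limit of the window. CR43651, the host of mir-14, a regulator of cell death and fat stores, ranked 3369 (4194 and 3216), at -21 bp.

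Another 11 hosts had sites outside the optimal set. The best were CR46006, the host of mir-276a, at rank 4302 with no match in replicate 1, CR45361, the host of mir-1, a muscle miRNA, at rank 4675, and CR43334, the host of bantam, which promotes growth and blocks apoptosis, at rank 5065. The remaining 8 held mir-bft (rank 6715), mir-958 (9106), mir-92b (10914), mir-315 (13322), mir-184 (15112), mir-iab-8 (17868), mir-276b (25764) and mir-9a (26213). The other 18 hosts had no pooled summit within 500 bp of a start, among them CR42651 with mir-10, CR43459 with mir-277 and mir-34, CR45919 with the neuronal mir-124, and iab4. A list cut at 30000 peaks does not show that nothing was there. The mir-34 hairpin, an entry of its own, did name a site at rank 6172 (11322 and 5041 in the replicates), with the summit at -213 bp.

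Well-known ncRNAs were mixed. Of 29 listed names, 25 carried the ncRNA biotype in the annotation. Of these 25, 15 had a pooled summit within 500 bp, 13 had a site free of coding starts, and 4 had an optimal one. These 4 were Uhg4, Hsromega, flam and let7C. Of all 3261 ncRNA genes, 30.6% had such a summit, 21.3% such a site and 2.64% an optimal one. The difference was not tested. Uhg4, a host of small nucleolar RNAs, ranked 252 (449 and 173) at -51 bp, and at -564 bp from the start of the coding gene Boot. The transposon-silencing piRNA locus flam ranked 1362 (1506 and 1397) at -172 bp, and had a second site at rank 10235.

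Both roX RNAs, which guide dosage compensation of the male X chromosome, had weak sites close to their starts. roX1 ranked 8171 at -2 bp, with rank 26841 in replicate 1 and 6083 in replicate 2. roX2 ranked 24145 at 50 bp, with a match in replicate 2 only (rank 13617). RNaseMRP, the RNA of an enzyme that processes ribosomal RNA, ranked 5046 with no match in replicate 1. yar ranked 8564, noe 8704, Uhg3 12014, iab8 17868, and the sites at Uhg5 and Uhg1, next to stronger peaks at coding starts, 17538 and 18601. Uhg2 and Uhg8 had a summit only where a coding start was near as well. No pooled summit lay within 500 bp of bxd, Uhg7, RNaseP, either 7SL gene, the mir-bft hairpin, acal, cherub, sphinx or CRG. The 7SK gene snRNA:7SKa is of snRNA biotype and so no site here, and had a summit within 500 bp at rank 391 (519 and 270). The remaining named sites were mostly low: sisRNA:4 ranked 1694, snoRNA:Or-ACA9 3983, marge 14128, Vinr 14708 and 16715, and the antisense RNAs Eig63F-2, ASTR and bsAS 11179, 21233 and 27803. The 5 named sncRNA entries ranked from 10057 to 25913.

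Entries for miRNA products named 57 sites, of which 3 were optimal (5.26%, where 11.8% of all pooled peaks were): mir-9377 at rank 1202, the mir-275 hairpin at 1806 and mir-4962 at 2327. Of the 57 sites, 37 lay inside a coding gene, as mir-9377 does in Tis11 and mir-4962 in Tlk. At 55 sites these entries were the only ncRNA starts in the window. Of these 55, 3 were optimal (5.45%, interval 1.14 to 15.1%), and the interval holds the 11.8% of all pooled peaks. The 26 sites named by a hairpin all had their summit upstream, and 29 of the 31 named by a mature miRNA downstream. The naming sets this split, because both starts lie side by side and an upstream summit is nearer to the hairpin.

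By kind of gene, 537 sites were named by lncRNAs, with 66 in the optimal set (12.3%, interval 9.63 to 15.4%), and 108 by antisense RNAs, with 11 (10.2%, interval 5.20 to 17.5%). The intervals overlap each other and hold the 11.8% of all pooled peaks. In all, 591 ncRNA genes named a site, 18.1% of the 3261. More than 1 site was named by 114 of them, and 3 or more by 8. CR43650, CR46006 and CR43334 each named 4, and CR43481, CR44749, CR45922, CR46090 and CR46336 named 3. CR43481 and CR45632 were the genes with 2 optimal sites. The best of the 4 at CR43334, the bantam host, lay at -482 bp and the others at -361, -251 and 12 bp.

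The rule used the distance of the summit from starts, with its limit of 500 bp, but not the side of the start. The summit was upstream at 371 of the 715 sites off the start base itself (51.9%, interval 48.2 to 55.6%). Among the optimal sites it was upstream at 62.2% (51 of 82, interval 50.8 to 72.7%). At coding starts the shares were 65.4% for all peaks and 84.4% for optimal ones (1655 of 1960, interval 82.8 to 86.0%). The median position was -13 bp for all sites and -76 bp for the optimal ones. Sites within 100 bp of the start numbered 161, or 22.5%, against 39.7% at coding starts. Antisense RNAs had 72 of 108 summits upstream, and lncRNAs 49.3% of theirs. In the list of replicate 1 alone the upstream share was 56.7%, and in that of replicate 2 alone 49.3%.

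**Figure D4:**
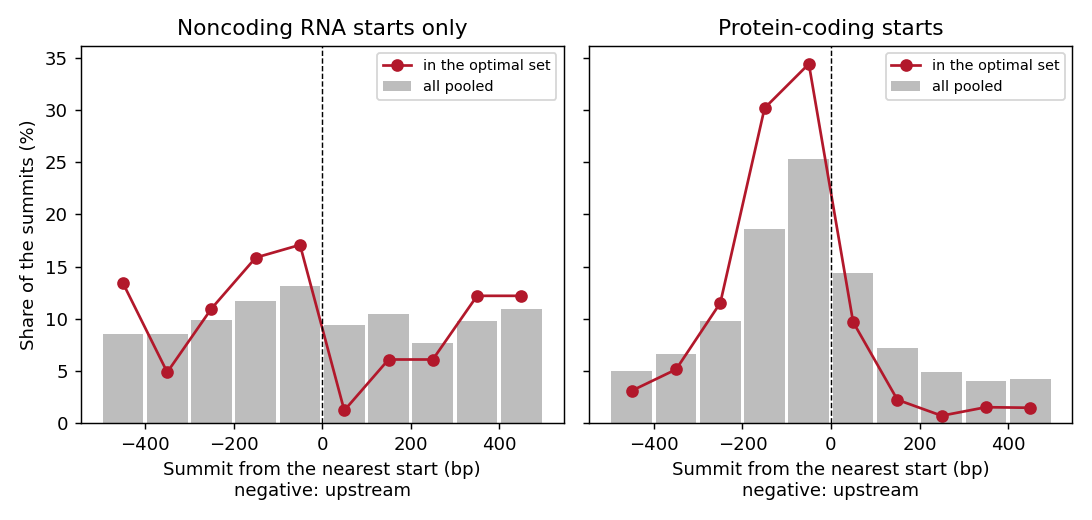
Share of summits in steps of 100 bp from the nearest start for sites at ncRNA starts only (left) and peaks at coding starts (right); grey bars are all pooled peaks of the kind and red points those in the optimal set. On the left the grey bars lie between 7.68% and 13.1%, and on the right the last 100 bp upstream hold 25.3% of all and 34.4% of optimal summits.

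Among the 82 optimal sites, 14 had their summit in the last 100 bp upstream of the start and 1, CR31840, in the first 100 bp of the transcript. A further 20 lay 300 to 500 bp downstream of the start, or 12.2% in each of the last steps of 100 bp. Of these 20, 13 were within the transcript and 7 past its end. Optimal peaks at coding starts had 1.53% and 1.48% there.

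The sites lay outside coding genes more often than pooled peaks did. The summit was inside a coding gene at 303 of the 716 (42.3%, interval 38.7 to 46.0%), against 69.8% of all pooled peaks, 58.7% of those at coding starts and 75.7% of those away from both. How much of this follows from where ncRNA genes are annotated was not tested. The coding gene was on the opposite strand at 201 sites, on the same strand at 99 and on both at 3. Of the opposite-strand sites 21 were optimal, of the same-strand sites 11 and of the 413 outside coding genes 50, which is 10.4%, 11.1% and 12.1%. A coding exon held 76 sites (10.6%), against 21.0% of all pooled peaks and 15.7% of those away from both kinds of start. It held 5 of the 82 optimal sites (6.10%, interval 2.01 to 13.7%), against 11.5% of all optimal peaks. The share was 18.2% for optimal peaks at coding starts and 3.02% for those away from both kinds of start. The interval of the sites holds the 3.02% and the 11.5%. The nearest coding start was 501 to 59141 bp away, with a median of 2696.5 bp, and 2298 bp for the optimal sites. From 501 to 1000 bp away 15 of 124 sites were optimal (12.1%, interval 6.93 to 19.2%). Over 10000 bp away 9 of 117 were (7.69%, interval 3.58 to 14.1%). The steps between, from 1000, 2000 and 5000 bp on, had 12.3%, 13.0% and 10.4%. Both intervals hold the 11.8% of all pooled peaks.

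Every large chromosome arm held sites. There were 151 on 2L, 124 on 2R, 183 on 3L, 145 on 3R, 103 on X and 10 on chromosome 4, of which 21, 18, 15, 15, 13 and 0 were optimal. On the 5 arms other than chromosome 4, between 11.1% and 12.7% of the pooled peaks were optimal. On chromosome 4, 11 of 640 were (1.72%), which is the background to its 0 of 10.

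Short motifs known from fly promoters were counted within 100 bp of the summit on both strands, with no motif containing another. The DRE core ATCGATA, bound by the promoter factor DREF, lay at 16 sites (2.23%, interval 1.28 to 3.60%) against 5.42% of all pooled peaks and 12.5% of those at coding starts. Peaks away from both kinds of start had it at 2.39%. None of the 82 optimal sites held it, where a limit of 3 counts allows a share of up to 3.66% and the exact interval reaches 4.40%, whereas 319 of 1962 optimal peaks at coding starts did (16.3%). The site of highest rank with a DRE core was CR45365, at rank 4254. The M1BP core GTCACAC, another promoter element, lay at 8 sites (1.12%, interval 0.484 to 2.19%), against 2.71% of all pooled peaks, 6.03% at coding starts and 1.29% away from both. For either core the interval of the sites holds the share away from starts.

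The other motifs lay nearer to the background. GAGAG, the GAGA element, was at 23.3% of the sites (background 22.5%), and the E-box CACGTG at 2.09% (background 2%). The CCAAT box ATTGG was at 31.0% (33.6% of all pooled peaks) and the Zelda core CAGGTA at 5.03% (4.28%), with intervals that hold the background. The TATA box TATAAA was at 24.9% (interval 21.7 to 28.2%) against 28.5%. The 4 optimal sites with an E-box (4.88%, interval 1.34 to 12.0%) were CR43650, CR43857, CR45595 and mir-4962. Of all optimal peaks 2.15% had one, a share that lies in that interval. Median GC content of the windows was 40.3% at the sites and 38.8% over all pooled peaks, and in the optimal set 35.1% and 34.8%. A match is a run of letters and not a bound site, and no test was run.

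**Figure D5:**
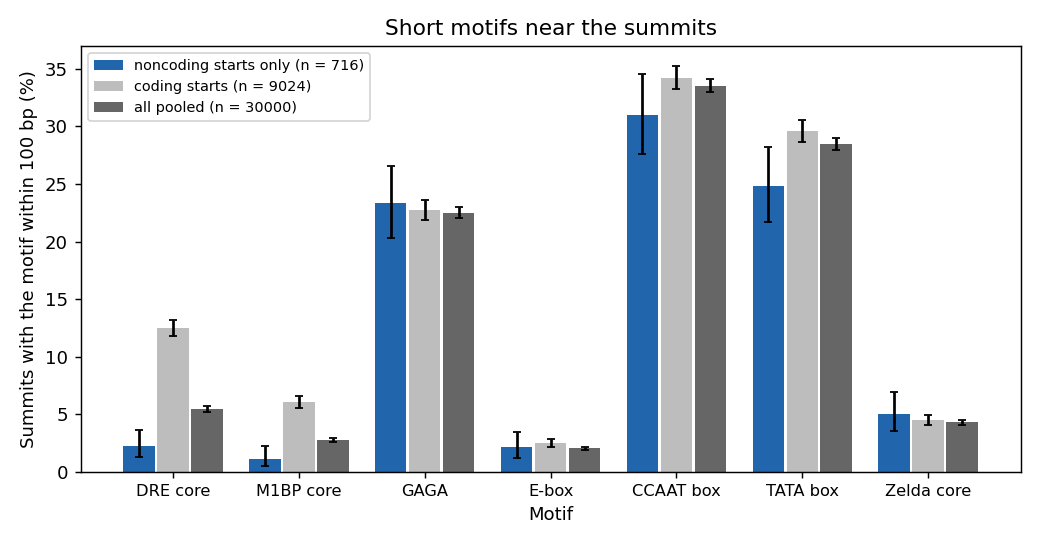
Share of summits with each of 7 short motifs within 100 bp, for the 716 sites at ncRNA starts only, the 9024 peaks at coding starts and all 30000 pooled peaks; bars carry 95% exact binomial intervals. The DRE and M1BP cores are at 2.23% and 1.12% of the sites against 12.5% and 6.03% at coding starts.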

How the data were processed

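The peak lists are the authors' deposited narrowPeak files on dm6: 1 relaxed list per replicate, 1 for the pool and an optimal set thresholded by irreproducible discovery rate. Per the labels' protocols, chromatin was sonicated to 200 to 800 bp. No source used here names the aligner, the caller or the threshold. The deposited score (signal value of the peak) ranks peaks within a list. The deposited −log10 q value is the same for the 2929 best pooled peaks and was not used to rank. Starts are those of Ensembl release 115 (BDGP 6.54), and sequences RefSeq Release 6. Peaks were matched between lists by summits within 100 bp. Intervals are Clopper-Pearson at 95%. With 1 group, no tests were made.

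The members, the lists of names and the motifs were chosen with earlier results of these data known. Genes named are those of the 20 best-scoring peaks, those with a name other than a CR number, 5 on each side of the optimal boundary, those with several peaks (3 or more), and well-known ncRNAs and miRNA hosts. A peak takes the nearest ncRNA start. The DRE, E-box and hairpin examples were named after their values were seen. Assignment and matching were tested on simulated peaks. Computation was in pandas 2.3.3 and scipy 1.17.1 under Python 3.11.15, with plots by matplotlib 3.10.9. Alternatives are given in the closing section.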

Additional observations from a re-analysis of the deposited data

How the results depend on the processing

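Of 112 alternative values, 81 stayed within the counting interval of the value reported (for counts of sites, within 1.5 times it) and 31 moved. The number of sites was 452 with a window of 250 bp and 421 with no coding start within 2000 bp. The latter put 35.2% of sites inside a coding gene, and taking the most 5′ start of each gene put 47.1% there. The upstream share was 49.3% without replicate 1 and 56.7% without replicate 2, and 62.2% in the optimal set. Matches in replicate 1 went from 57.8% to 46.1% with summits within 50 bp, 69.7% within 200 bp and 67.6% with 50% reciprocal overlap. In replicate 2 they were 57.7%, 75.6% and 72.3%. In the optimal set both were 98.8%. The 1766 best peaks held 6.42% of the sites.

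With 50 bp searched on each side, motif shares were 0.978% (DRE core), 0.419% (M1BP core), 13.1% (GAGA), 0.978% (E-box), 17.5% (CCAAT box), 12.99% (TATA box) and 2.79% (Zelda core). With 150 bp, those that moved were 3.63% (DRE core), 33.7% (GAGA), 3.77% (E-box), 43.4% (CCAAT box), 34.4% (TATA box) and 6.98% (Zelda core). In the optimal set they were 0.0% (DRE core), 4.88% (E-box) and 30.5% (TATA box). A wider or narrower search finds more or fewer letters by construction, and so does a wider or narrower match between summits. A shorter list of best peaks and a wider exclusion of coding starts can only leave fewer sites. The share of optimal sites matched in each replicate describes how the optimal set was made. For the other moves the cause was not tested. Leaving out hairpins and mature miRNAs, chosen after seeing the data, left 661 sites, of which 11.95% were optimal and 52.0% upstream. Depth is unknown and sets no limit that could be computed. No paired analysis was possible because there is 1 group.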
